A study of Mus musculus with 6 samples.

Results

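The genes described here lie around P2ry6 on mouse chromosome 7. P2ry6 is the gene labelled as knocked out in the mice of the study and encodes a G-protein-coupled receptor for the nucleotide uridine diphosphate. Members were chosen by position: every array probe on chromosome 7 of build mm9 whose start lies between 105100000 and 111100000, a window of 6 Mb, leaving out probes whose gene name starts with P2ry, Olfr or Wnt and those of Rrm1. The window held 289 probes, 89 were left out by name, and 200 flanking probes remained of 56605 non-control probes on the array. They carry 134 of the array's 37008 gene and transcript names. The rule used coordinates and names only, so no measured value chose a member.

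The samples were skin tumours of male mice, 3 labelled P2ry6-/- (KO) and 3 labelled P2ry6+/+ (WT). Tumours were raised by a single 195 nmol dose of the carcinogen DMBA to the shaved back in 200 uL of acetone, followed from a week later by 16 nmol of the promoter TPA 2 times a week until week 22, in 12 mice of each genotype. Total RNA, 0.2 ug per sample, was labelled with Cy3 and hybridised to 6 one-colour Agilent arrays. The labels give neither the strain, nor the age, nor which stretch of P2ry6 was removed, nor that the 3 tumours of a genotype are from different mice, so the p-values below reflect only the spread between these 6 samples.

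A targeted gene is inherited together with the chromosome around it. In mice made from embryonic stem cells, the neighbourhood of the target often stays that of the stem cells' strain after backcrossing, and it can carry sequence variants of that strain. For this reason, genes near a target are commonly looked at separately from genes elsewhere. Whether these mice carry such a segment is not given in the labels and was not tested.

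Values below are log2 of the processed signal minus the 75th percentile of the same array, so that 0 lies at that percentile, and differences are KO minus WT. A positive difference means more signal in KO tumours. Testing required a signal well above background on all 3 arrays of one genotype or the other. Of the 200 flanking probes, 128 passed (84 gene names), and 118 of these were well above background on all 6 arrays. Of the 72 untested probes, 52 were above background on 0 arrays and 20 on some of them. The untested ones include all 4 ADP-ribosyltransferase genes of the window (Art1, Art2a, Art2b and Art5) and the embryonic globins Hbb-y and Hbb-bh2. Because the filter keeps a probe that is bright in only 1 genotype, counts over the 128 tested probes do not describe all 200.

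On the array level, 54.2% to 59.4% of spots were well above background, the 75th percentile was 426.8, 423.7 and 396.4 units on the KO arrays and 495.7, 523.8 and 463.5 units on the WT arrays, and 6 arrays limit the precision. The 15 keratinocyte markers had mean levels of 7.04 to 7.13 in KO tumours and 6.81 to 6.92 in WT tumours, 11 with a positive and 4 with a negative difference. Other lists differed more between the genotypes: all 14 tested skeletal muscle genes had lower values in KO tumours, as did 9 of 11 adipocyte genes and 9 of 10 sebaceous genes. Of these, 6 muscle and 4 adipocyte genes were above background on 0 KO arrays. Myh1 and Ryr1 (muscle), Cidec (adipocyte) and Dgat2l6 (sebaceous) were above it on only some KO arrays. All of these were tested only through the WT tumours, where they are high, so the filter itself favours their direction. All 6 arrays lay on 1 slide. Slide positions were read from the last 2 digits of each array's barcode. Calling the first digit the column and the second the row is a choice made here and may be the reverse of the slide's own layout. In replicate order, the KO arrays occupied slide rows 2, 3 and 3 and the WT arrays rows 1, 1 and 2. Rows 1 and 3 each held 1 genotype, so a fit with the row as a block rests on KO replicate 1 and WT replicate 3, the 2 arrays of row 2.

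A few probe sequences are printed because the results turn on what the probe can bind. The only tested flanking probe inside the P2ry6 span, named AK033028 after a transcript accession on the array, is built from a tandem repeat. The Ucp2 and Ucp3 probes report adjacent genes that share a direction, the 2 Serpinh1 probes lie close together on opposite strands, and Gpx2-ps1 is a pseudogene copy of an expressed gene. Sequences are the array's own, 5′ to 3′, with positions on mm9, and capitals mark the repeated stretch of the AK033028 probe. For Ucp2 and Serpinh1 the first 30 of the 60 bases are shown.
AK033028, chr7:108099778-108099837, plus strand: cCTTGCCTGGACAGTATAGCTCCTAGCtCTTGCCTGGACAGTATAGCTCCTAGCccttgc
Ucp3, chr7:107630399-107630458, plus strand: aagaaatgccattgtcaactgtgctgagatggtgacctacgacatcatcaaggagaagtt
Ucp2, chr7:107645281-107645340, plus strand: cgtttctccaatttctctccatcttctggg
Ucp2, chr7:107647809-107647868, plus strand: ctcaaaagagccctaatggctgcctaccaa
Serpinh1, chr7:106493971-106494030, minus strand: ggggaggggaaatatgagcctttgttgctt
Serpinh1, chr7:106494061-106494120, plus strand: aaacaaaagttcatgactgtgatgcccaac
Gpx2-ps1, chr7:107413190-107413252, plus strand: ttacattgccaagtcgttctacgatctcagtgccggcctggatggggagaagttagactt

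Across the whole flanking set, 0 of 128 tested probes passed limma's adjusted p under 0.05, against 45 of 29726 probes on the array (0.151%, of which 0.0606% higher and 0.0908% lower in KO tumours). The smallest limma adjusted p among the flanking probes was 0.176, for Map6. At an unadjusted p under 0.05, 18 flanking probes (14.1%) stood out, 12 higher and 6 lower in KO tumours, against 12.9% of all tested probes (8.31% higher and 4.64% lower). Adding a 2-fold minimum left 4 (3.12%, 3 higher and 1 lower), against 3.94% of all tested probes (1.95% higher and 1.99% lower). The KO and WT values did not overlap at 21 flanking probes (16.4%), against 19.3% of all tested probes. These were 16 higher and 5 lower, and the array-wide shares were 12.8% and 6.48%. With each array centred on its median in place of its 75th percentile, 10 flanking probes were higher and 6 lower without overlap (12.5%), against 17.2% of all tested probes (9.66% higher and 7.56% lower). On each of these rules the flanking share, taken over both directions, stood near or below the array-wide share. With the slide row as a block, a fit chosen after the data were seen, the difference rests on KO replicate 1 and WT replicate 3 alone. No count of flanking probes at 2-fold is given for that fit.

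The differences themselves were small. Their median was 0.07 (0.04 over all tested probes) and the median absolute difference was 0.18 (0.21 over all), against a median standard error of 0.22 (0.21 over all). Of the 128 probes, 108 (84.4%) differed by less than 1.5-fold, and 86.2% of all tested probes did. A positive difference was found for 82 probes (64.1%) and a negative one for 46, and 54.8% of all tested probes had a positive one. With median centring the flanking probes had 71 positive differences (55.5%) and 57 negative, against 47.3% positive over all tested probes. With the slide row as a block there were 95 positive (74.2%) and 33 negative, against 52.8% positive over all tested probes.

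The flanking probes also differed between tumours of the same genotype. KO replicate 1 held the highest of the 6 values at 37 of the 128 probes and WT replicate 1 at 38, whereas KO replicate 3 held it at 8 and WT replicate 2 at 10. The lowest value was in WT replicate 2 at 40 probes (31.2%) and in WT replicate 3 at 36 (28.1%), against 6 (4.69%) in KO replicate 1. Over all tested probes those 3 arrays held the lowest value at 23.9%, 21.3% and 10.4%. Among all tested probes, the shares with the highest value ranged from 13% (KO replicate 3) to 23% (WT replicate 3). Leaving out WT replicate 2 turned the 82 positive and 46 negative differences into 65 and 63, and leaving out KO replicate 1 gave 71 and 57. Over all tested probes, 51.6% and 53.7% were positive in these 2 fits.

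**Figure D1:**
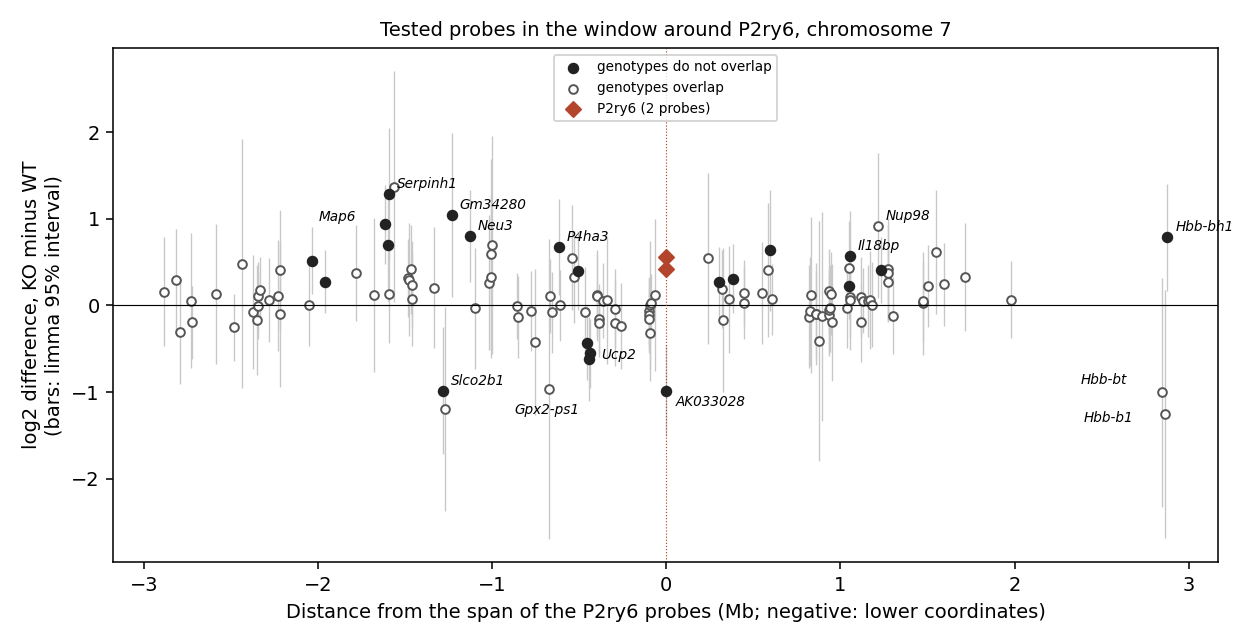
Log2 difference, KO minus WT, of each of the 128 tested flanking probes (circles, vertical axis) against its distance in Mb from the span of the P2ry6 probes (horizontal axis), with limma's 95% interval as a bar and the 2 P2ry6 probes as diamonds. Filled circles mark the 21 probes whose KO and WT values do not overlap; they lie on both sides of P2ry6, and 108 of the 128 circles differ by less than 1.5-fold.

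P2ry6 itself was measured by 2 probes, both on the minus strand and both well above background on all 6 arrays. The probe at chr7:108086152-108086211 read 0.05, 0.20 and -0.07 in KO tumours, against -0.16, -0.18 and -0.73 in WT tumours. The probe at chr7:108112251-108112310 read -1.47, -1.20 and -0.97 in KO tumours and -1.47, -1.65 and -2.18 in WT tumours. KO values lay above WT values at both, although at the second probe the lowest KO and highest WT values are equal to 2 decimals, with differences of 0.42 (SE 0.21, limma adjusted p = 0.443) and 0.55 (SE 0.24, limma adjusted p = 0.390). A two-sided exact permutation test gave p = 0.1 for each, the smallest p that 3 against 3 samples allow. The removed stretch is not given, so whether either probe lies inside or outside it is not known. These probes therefore neither check nor contradict the genotype, and each direction given here follows the labels. Why both read higher in KO tumours was not tested.

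Inside the span of those probes, AK033028 had the second smallest adjusted p of the flanking set and the direction opposite to P2ry6. The probe lies on the plus strand, against P2ry6 on the minus strand. It read -4.94, -4.81 and -4.44 in KO tumours and -3.60, -4.10 and -3.54 in WT tumours, with no overlap. It was well above background on all 3 WT arrays and on 0 of 3 KO arrays. The probe was therefore tested only through the WT tumours, where it is high, and the KO level is only a bound. On that bound it was at least 1.56-fold lower in KO tumours (measured means -4.73 ± 0.26 in KO and -3.75 ± 0.31 in WT tumours, SD, n = 3 each; limma adjusted p = 0.193). With normexp background correction the difference was -0.15, in place of -0.98. As the printed sequence shows, 26 bases occur 2 times in its 60, starting at bases 2 and 29. Only 10 of 29726 tested probes (0.0336%) hold a repeat this long, and the longest in another tested flanking probe is 11 bases. What the probe binds besides the P2ry6 region was not tested.

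**Figure D2:**
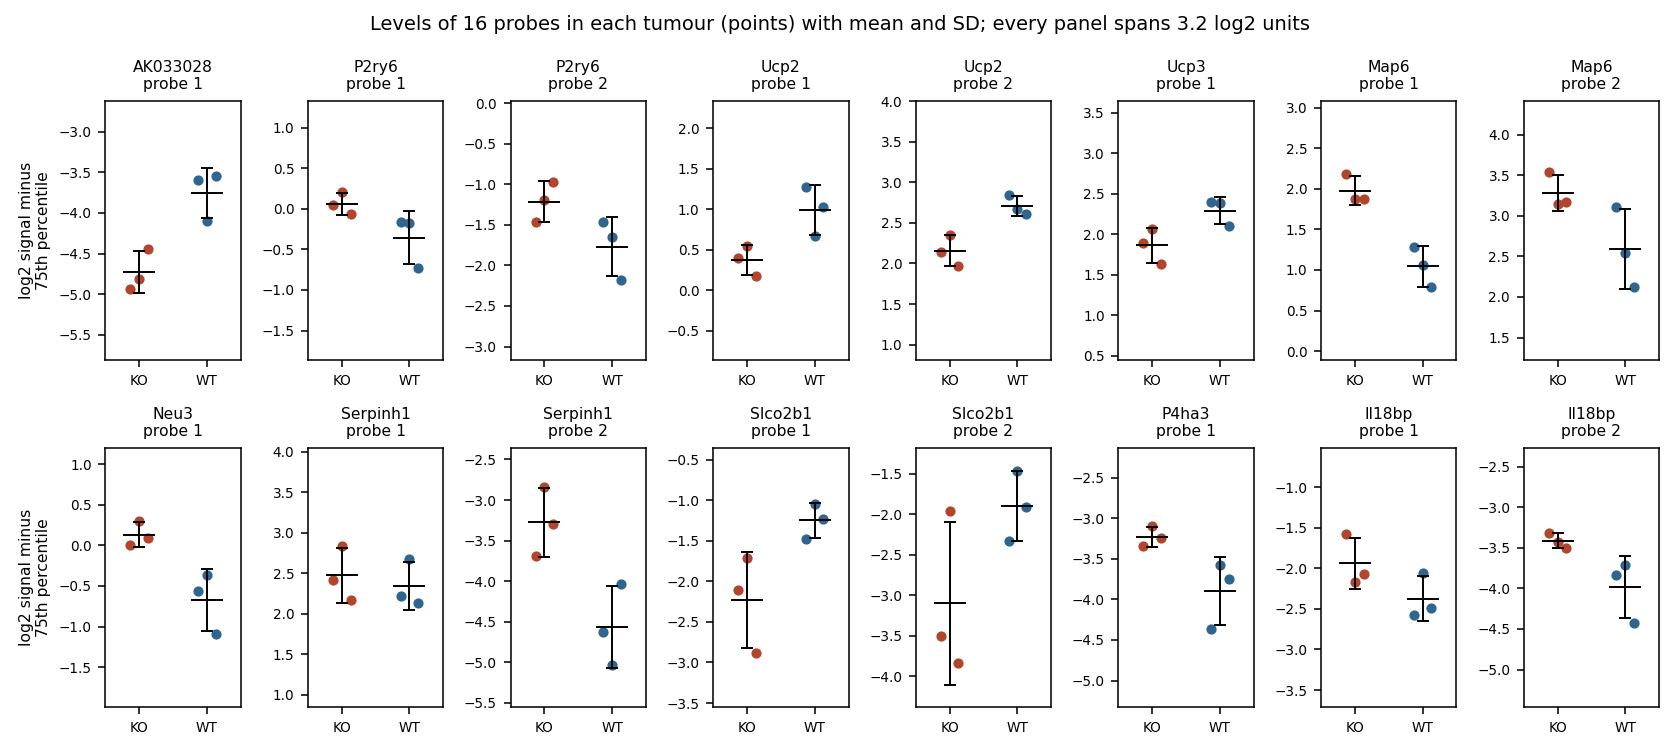
Level of 16 probes (log2 signal minus the array's 75th percentile, vertical axes, each panel spanning 3.2 log2 units) in every tumour, KO left and WT right, with mean and SD. AK033028, Ucp2, Ucp3 and the first Slco2b1 probe lie lower in KO without overlap, while P2ry6, Map6, Neu3, P4ha3, the second Serpinh1 probe and the second Il18bp probe lie higher without overlap.

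The genes nearest to P2ry6 had small differences. On the side of lower coordinates the nearest with a tested probe was Arhgef17, a guanine nucleotide exchange factor, 65.4 kb away. It read 1.26, 1.22 and 1.72 in KO tumours and 2.13, 0.94 and 0.77 in WT tumours, a difference of 0.12 (SE 0.37) that the spread of the WT tumours exceeded. Relt, a receptor of the tumour necrosis factor receptor family, had 3 probes with differences of -0.32, 0.01 and 0.03. Fam168a had 3 between -0.16 and -0.06. Gm35082 had -0.24, the Golgi trafficking GTPase Rab6a had -0.20 and -0.04, and Mrpl48, a protein of the large mitochondrial ribosomal subunit, had -0.20, -0.15 and 0.07. KO and WT values overlapped at every tested probe of these 6 genes.

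On the side of higher coordinates, the nearest was Fchsd2, an F-BAR membrane protein, with one tested probe 237.1 kb from P2ry6. Its 2 probes gave 0.54 (SE 0.42) and 0.19 (SE 0.19). The expressed-sequence probe DV045877, which lies between them, read -2.14, -2.14 and -2.16 in KO tumours and -2.17, -2.67 and -2.40 in WT tumours, a difference of 0.27 with no overlap. Atg16l2, a relative of the autophagy protein Atg16l1, had -0.16, and the lipid-transfer protein Stard10 had 0.07. Gm35219 read -2.67, -2.60 and -2.76 in KO tumours against -2.81, -2.92 and -3.22 in WT tumours, again without overlap and with a difference of 0.31 (SE 0.17, limma adjusted p = 0.491). Arap1, a GTPase-activating protein, had 0.03 and 0.14. Across these 12 genes, the nearest 6 on each side, the largest absolute difference was the 0.54 of Fchsd2, which was 0.11 without WT replicate 2 and 0.92 without WT replicate 1.

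The differences showed no steady change with distance from P2ry6. Over all tested probes, 54.8% of differences were positive and 3.94% of probes were at 2-fold with p under 0.05. Within 1 Mb but outside the P2ry6 span, 57 probes had 27 positive (47.4%) and 30 negative differences. Their median absolute difference was 0.13, with 0 at 2-fold and p under 0.05. AK033028, which lies inside the span and had a difference of -0.98, is in none of these distance groups. From 1 to 2 Mb, 48 probes had 42 positive (87.5%) and 6 negative differences, a median absolute difference of 0.27, and all 4 of the 2-fold probes (8.33%). Among those 4, the plus-strand Serpinh1 probe and the probe at chr7:106525350-106525409 were tested only through the KO tumours, where they are high. From 2 to 3 Mb, 22 probes had 13 positive (59.1%) and 9 negative differences and a median absolute difference of 0.17. Across the 128 probes, absolute distance and absolute difference gave a Pearson correlation of 0.15 and a Spearman correlation of 0.14; this is a description across probes that share arrays, and probes of a gene are not independent. Neighbouring genes had the same sign in 53 of 83 adjacent pairs, with r = 0.12 between their differences.

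Apart from the 3 globin probes at the upper edge, the bin of 0.5 Mb with the largest median absolute difference lay between 1.5 and 2.0 Mb on the lower-coordinate side. Its 8 tested probes, from 6 gene names, all had positive differences, with a median absolute difference of 0.53, and 4 of the 8 did not overlap (against 19.3% of all tested probes). They include Map6 and Serpinh1. The plus-strand Serpinh1 probe and the probe at chr7:106525350-106525409, both in this bin, were tested only through the KO tumours, where they are high. The bin was picked out after its values were seen. Its counterpart on the other side held 5 probes, all positive, with a median absolute difference of 0.24 and 0 without overlap. In the 3 Mb below the window, 9.38% of 32 tested probes did not overlap, in the 3 Mb above it 30.8% of 52, and on the rest of chromosome 7 15.7% of 2062, with 16.4% in the window. At the window's lower end, Pak1 just outside had a difference of 0.14 and Myo7a just inside 0.16. At the upper end Hbb-bh1 just inside had 0.79, and the next tested probe outside had -0.13.

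**Figure D3:**
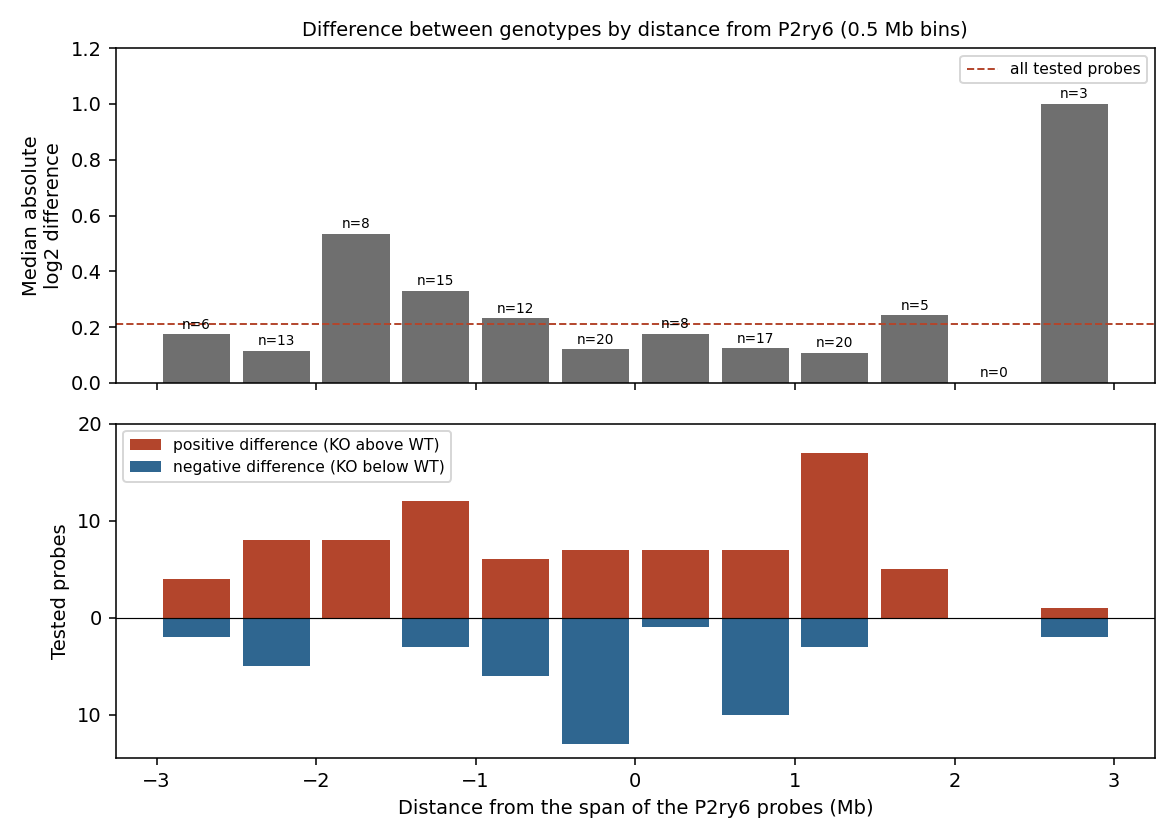
Median absolute log2 difference (top) and number of tested probes with a positive or negative difference, KO minus WT (bottom), in bins of 0.5 Mb on each side of the P2ry6 probe span; n is the number of tested probes in a bin. The 2 bins next to P2ry6 lie below the median of all tested probes (dashed line, 0.21), the bin from 1.5 to 2.0 Mb on the lower-coordinate side reaches 0.53, and the outermost bin on the right rests on 3 globin probes. AK033028, inside the span, is in no bin.

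Among tested probes outside the P2ry6 span, those of Ucp2 and Ucp3 were the closest on the lower-coordinate side whose values did not overlap. They encode carriers of the mitochondrial inner membrane related to the uncoupling protein of brown fat; Ucp3 is known mainly from skeletal muscle and brown fat, Ucp2 from many tissues including immune cells. The Ucp2 probe at chr7:107647809-107647868 read 2.14, 2.35 and 1.97 in KO tumours and 2.85, 2.67 and 2.60 in WT tumours. Its other probe read 0.40, 0.54 and 0.18 in KO tumours against 1.28, 0.67 and 1.03 in WT tumours. Every KO tumour lay below every WT tumour at both probes, with differences of -0.55 (SE 0.17, limma adjusted p = 0.277) and -0.62 (SE 0.21, limma adjusted p = 0.306). Ucp3, 455.7 kb from P2ry6, read 1.90, 2.06 and 1.63 in KO tumours and 2.39, 2.38 and 2.10 in WT tumours (difference -0.43, SE 0.18, limma adjusted p = 0.384, and -0.20 with the slide row as a block). None of the 3 passed the threshold. The other mitochondrial genes of the window had smaller differences, with Mrpl48 as above and the cytochrome oxidase assembly factor Coa4 at 0.12 and 0.11.

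Muscle and fat markers differed in the same direction as Ucp2 and Ucp3. The mean level of the 14 tested muscle genes was -3.94, -4.17 and -3.73 in KO tumours and -1.12, 3.26 and 0.28 in WT tumours. In KO tumours 6 of the 14 were above background on 0 arrays. Like Myh1 and Ryr1, they were tested only through the WT tumours, where they are high. The median difference of the 14 was -4.30, or -3.66 with the 6 dim ones at their bound. For 11 adipocyte genes the mean level was -2.04, -2.37 and -2.11 in KO tumours and 0.79, 1.68 and 0.31 in WT tumours, and 4 were above background on 0 KO arrays. Those 4 and Cidec were tested only through the WT tumours. Brown adipocyte genes had 3 of 5 lower, among them Prdm16, which was tested only through the WT tumours. Ucp1, the defining brown-fat uncoupling protein, did not pass the filter. WT replicate 2 had the highest muscle and fat levels. Both Ucp2 probes were highest in WT replicate 1, and Ucp3 was nearly equal in WT replicates 1 and 2 (2.39 and 2.38). The part of these tissues in the Ucp2 and Ucp3 values was not tested, and in bulk tumours fewer cells of a type cannot be told apart from less RNA per cell.

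The 2 genes lie next to each other, and their promoters are printed because both genes lay lower in KO tumours. The sequences are from RefSeq on GRCm38.p6, a later build than the probes', and cover the 250 bases before each start. Capitals mark the match to the GC box GGGCGG, searched on both strands. Of the 84 tested gene names, 56 had an entry in the promoter table.
Ucp2, chr7:100493108-100493357, plus strand: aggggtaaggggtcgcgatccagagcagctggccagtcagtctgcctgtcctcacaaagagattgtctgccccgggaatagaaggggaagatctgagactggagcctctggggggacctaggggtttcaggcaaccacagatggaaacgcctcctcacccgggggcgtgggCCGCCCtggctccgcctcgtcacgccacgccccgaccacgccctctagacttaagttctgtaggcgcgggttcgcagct
Ucp3, chr7:100472741-100472990, plus strand: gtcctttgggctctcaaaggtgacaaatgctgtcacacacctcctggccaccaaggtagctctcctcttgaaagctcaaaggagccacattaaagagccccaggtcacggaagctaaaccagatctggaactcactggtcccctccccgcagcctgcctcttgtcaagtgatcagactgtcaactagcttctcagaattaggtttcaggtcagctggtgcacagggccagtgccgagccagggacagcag
The Ucp2 stretch holds 1 match and 63.6% G and C, and the Ucp3 stretch holds 0 matches and 54.8%. The motif occurs in 32.7% of 32851 mouse promoters of this length and in 40 of 86 promoters of flanking genes. A match is a description of letters, not of a bound site.

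Map6, which encodes a microtubule-stabilising protein, had the smallest p of the flanking set. Its probe at chr7:106468650-106468709 read 2.19, 1.88 and 1.87 in KO tumours, against 1.28, 1.06 and 0.79 in WT tumours. The second tested probe, at chr7:106485587-106485646, read 3.54, 3.14 and 3.18 in KO tumours and 3.11, 2.54 and 2.13 in WT tumours. Both were higher in KO tumours without overlap, with differences of 0.93 (SE 0.19, 95% interval 0.48 to 1.39, limma adjusted p = 0.176) and 0.69 (SE 0.27, limma adjusted p = 0.359). Another Map6 probe did not pass the filter.

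Among the genes listed as lipid and hormone enzymes, Neu3, a plasma membrane sialidase that acts on gangliosides, had the largest difference. It read 0.00, 0.30 and 0.09 in KO tumours and -0.56, -0.36 and -1.09 in WT tumours, with no overlap (difference 0.80, SE 0.22, limma adjusted p = 0.251). Dgat2, which makes triglycerides, had 0.37 with overlap, the phosphodiesterase gene Gdpd5 had 0.32 and 0.30, and the ceramidase gene Acer3 had -0.19. Pgm2l1, named only to complete the list, had -0.08 at its brightest probe. Of the 5 tested genes of this list, 3 differences were positive and 2 negative, and 0 passed the threshold.

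Of the genes for collagen, matrix and growth factor handling, all 4 tested had a positive difference at their brightest probe, and 0 passed the threshold. P4ha3, a catalytic subunit of the collagen prolyl hydroxylase, read -3.34, -3.10 and -3.24 in KO tumours and -4.37, -3.57 and -3.75 in WT tumours, without overlap (difference 0.67, SE 0.23, limma adjusted p = 0.315). It was 0.38 with normexp and 0.44 without WT replicate 1. Lrrc32, which holds latent TGF-beta at the cell surface, had 0.48 with an SE of 0.61, and the secreted protein gene Tsku had 0.13. Fibroblast markers had 9 of 10 positive differences, with a median of 0.50 and mean levels of 3.30, 3.76 and 2.63 in KO tumours and 2.92, 3.43 and 1.81 in WT tumours. Their part in the values of these genes was not tested.

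Serpinh1, the collagen chaperone HSP47, gave different values on its 2 strands. Its minus-strand probe read 2.41, 2.84 and 2.17 in KO tumours and 2.22, 2.68 and 2.13 in WT tumours, which overlap (difference 0.13, SE 0.24). Its plus-strand probe read -3.69, -2.84 and -3.30 in KO tumours and -4.63, -5.04 and -4.03 in WT tumours, which do not overlap (difference 1.29, SE 0.32, limma adjusted p = 0.221). The plus-strand probe was above background on all 3 KO arrays and on 1 of 3 WT arrays, so it was tested only through the KO tumours, where it is high. Its difference was 0.61 with normexp background correction and 0.35 with the slide row as a block. The probe at chr7:106525350-106525409, named on the array only by coordinates, had the largest difference of the set, 1.37 (SE 0.56, limma adjusted p = 0.376). It read -3.28, -2.48 and -3.39 in KO tumours and -4.27, -3.36 and -5.63 in WT tumours, which overlap. It was above background on all 3 KO arrays and 2 of 3 WT arrays, so it too was tested only through the KO tumours. The difference was 0.53 with normexp and 0.77 without WT replicate 3.

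For transporters and channels, the 4 tested genes had negative differences at their brightest probe, and 0 passed the threshold. Slco2b1, an organic anion transporter, gave the only probe of the set that was lower at 2-fold with p under 0.05. That probe, at chr7:106815871-106815930 on the plus strand, read -3.50, -1.96 and -3.84 in KO tumours and -2.33, -1.46 and -1.91 in WT tumours, which overlap (difference -1.20, SE 0.50, limma adjusted p = 0.381). The minus-strand probe read -2.11, -1.71 and -2.88 in KO tumours and -1.48, -1.04 and -1.23 in WT tumours, which do not overlap (difference -0.98, SE 0.31, limma adjusted p = 0.287, and -0.58 with normexp). Slco2b1 and Serpinh1 are the only 2 genes of the set with tested probes on both strands. The potassium channel subunit Kcne3 had -0.42 (SE 0.36), and the folate receptor genes Folr2 and Folr1 had -0.41 (SE 0.58) and -0.12 (SE 0.51), each with overlap. Folr2 was above background on only 2 KO arrays, so it was tested only through the WT tumours. Kcne3, Folr2 and Folr1 were each reversed under some of the alternatives, so no shared direction is drawn from them.

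Gm34280 was the fourth probe at 2-fold with p under 0.05. It read -3.03, -1.56 and -3.02 in KO tumours and -3.70, -3.59 and -3.43 in WT tumours, with no overlap and with KO replicate 2 well above the other 2 KO tumours. The difference was 1.04 (SE 0.40, limma adjusted p = 0.351), with 0.55 without KO replicate 2 and 0.64 with normexp.

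Among genes of the nucleus, DNA repair and autophagy, 5 of 7 had a positive difference at the brightest probe and 0 passed the threshold. Probes of a gene differed here. Uvrag, an autophagy and endosome protein, had 0.52 (SE 0.16, limma adjusted p = 0.284) and 0.28 at probes without overlap and 0.00 at its brightest. Nup98, a nuclear pore protein, had 0.92 (SE 0.35, limma adjusted p = 0.352) at one probe with overlap and 0.01 to 0.06 at the other 3. The spindle protein gene Numa1 had 0.22 without overlap and -0.03, and Emsy, known for binding BRCA2, had 4 probes between -0.16 and 0.18. Of the 31 flanking genes with more than 1 tested probe, 10 had probes of different sign and only Serpinh1 had probes more than 1 apart.

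**Figure D4:**
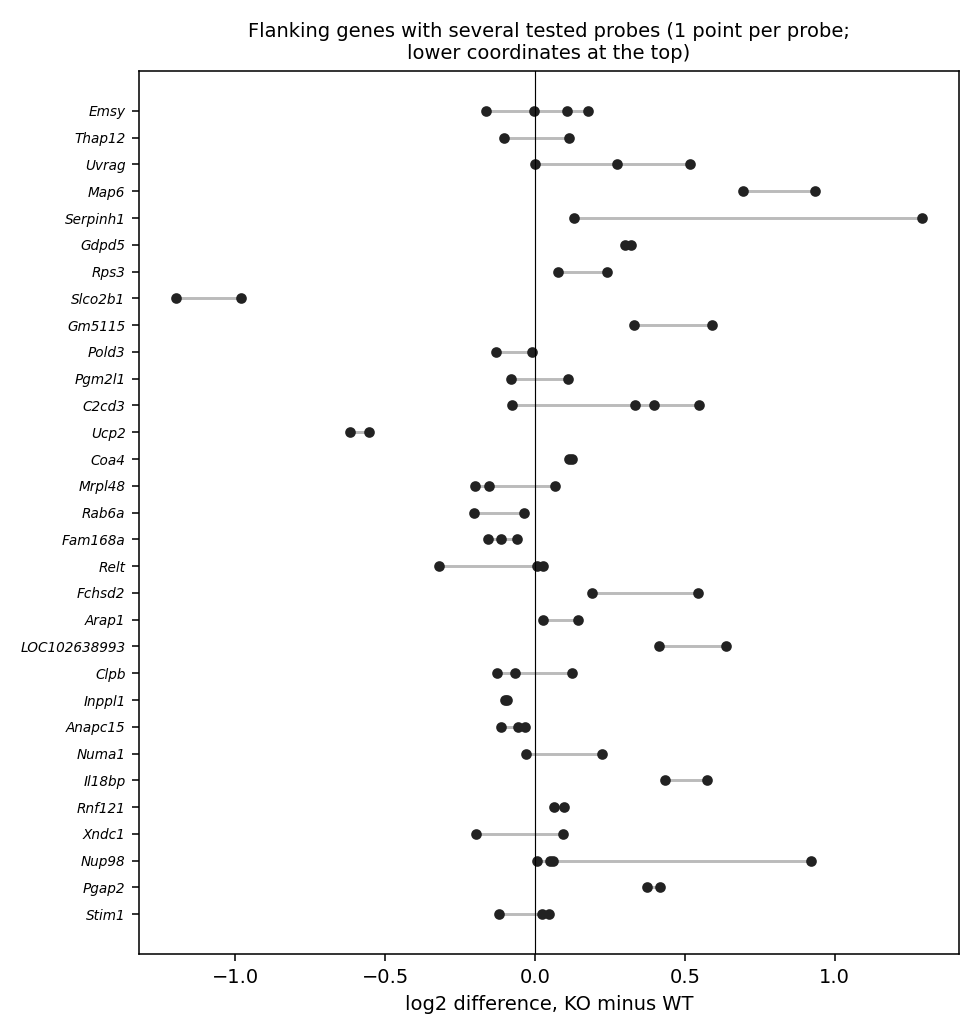
Log2 difference, KO minus WT (horizontal axis), of each tested probe (points) of the 31 flanking genes with several tested probes, ordered by coordinate from the top; a line joins the probes of a gene. Map6, Ucp2, Slco2b1, Il18bp and Pgap2 have their probes on 1 side of 0 and close together, while the probes of Serpinh1, Nup98, C2cd3 and Uvrag spread by more than 0.5. The probes of Slco2b1 lie on opposite strands, as do those of Serpinh1, so in these genes the points need not measure the same RNA.

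Il18bp, the secreted inhibitor that binds the cytokine interleukin 18, was measured by 2 probes. The one at chr7:109164573-109164632 read -3.31, -3.43 and -3.50 in KO tumours against -3.83, -3.71 and -4.42 in WT tumours, without overlap. The other read -1.58, -2.16 and -2.07 in KO tumours and -2.58, -2.06 and -2.48 in WT tumours, with overlap. The differences were 0.57 (SE 0.22, limma adjusted p = 0.348) and 0.44 (SE 0.23, limma adjusted p = 0.476), and the first was 0.29 with normexp and 0.36 without WT replicate 3. Beside it, 16 of 17 tested interferon-response genes had a positive difference (median 0.90), with mean levels of 0.21, -0.59 and -0.05 in KO tumours and -1.11, -0.76 and -0.97 in WT tumours. Among them, Mx1 and Mx2 were tested only through the KO tumours, where they are high. The ligand gene Il18 on chromosome 9 had 0.69 (SE 0.23, limma adjusted p = 0.306); it was chosen after its values were seen. The part of the interferon response in the Il18bp values was not tested. The 2 tested members of the TRIM family, Trim21 and Trim68, had 0.24 and 0.33, both with overlap.

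Of the remaining groups, the 11 tested genes of receptor and GTPase signalling had 9 positive and 2 negative differences, with a median of 0.12 and 0 past the threshold; the small GTPase gene Rhog had 0.27. The 6 genes of ribosome, proteasome and secretion had 4 positive and 2 negative differences and a median of 0.05. In that group the GPI-anchor gene Pgap2 had 0.42 and 0.37, the ribosomal protein gene Rps3 had 0.24 and 0.08, and the ubiquitin ligase gene Rnf121 had 0.10 and 0.06. Near the lower end of the window, Capn5, a calpain protease, had 0.29, Omp, the olfactory marker protein, had -0.31, and Myo7a, the myosin of sensory hair cells, had 0.16. The unannotated probes AK030935 and NAP062849-1 had 0.41 without overlap (SE 0.16, limma adjusted p = 0.361) and -0.25 with overlap. C2cd3 and LOC102638993 each had 1 probe without overlap, with differences of 0.40 and 0.64; these were chosen after their values were seen.

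The beta-globin cluster lies at the upper edge of the window, 2848.8 kb or more from P2ry6. Its adult genes Hbb-bt and Hbb-b1, whose near-identical sequences the probes may not separate, encode the beta chain of red-cell haemoglobin. Hbb-bt read 6.27, 4.70 and 4.95 in KO tumours and 6.12, 5.51 and 7.29 in WT tumours, with a difference of -1.001 (SE 0.56, limma adjusted p = 0.503). Hbb-b1 read 3.01, 1.24 and 1.26 in KO tumours and 2.74, 2.42 and 4.10 in WT tumours (difference -1.25, SE 0.61, limma adjusted p = 0.441). In both, WT replicate 3 was highest, KO replicate 1 exceeded WT replicates 1 and 2, and the genotypes overlapped. Without WT replicate 3 the differences were -0.51 for Hbb-bt and -0.75 for Hbb-b1. Of the 6 tested erythroid markers outside the window, Hba-a1, Hba-a2 and Alas2 ranked the tumours in the same order, which was looked at after the values were seen. The alpha-globin gene Hba-a1 on chromosome 11 read 8.87, 7.73 and 7.86 in KO tumours and 8.77, 8.18 and 9.17 in WT tumours. Alas2, the first enzyme of red-cell haem synthesis, on chromosome X, read 1.57, 0.00 and 0.03 in KO tumours and 1.34, 0.78 and 2.59 in WT tumours. The other 3 had other orders. Slc4a1, the anion exchanger of the red-cell membrane, read -2.74, -4.01 and -3.97 in KO tumours and -2.65, -2.58 and -0.88 in WT tumours. Ahsp, a chaperone of alpha globin, read -3.90, -6.36 and -5.38 in KO tumours and -4.10, -3.06 and -2.72 in WT tumours. Ermap, a protein of the red-cell membrane, ran the other way, with 0.373, 0.408 and 0.542 in KO tumours and 0.111, 0.232 and 0.285 in WT tumours. Of the 6 markers, 5 had negative differences (median -0.80), with mean levels of 2.16, 0.91 and 1.15 in KO tumours and 2.02, 1.95 and 2.92 in WT tumours. One of the 5, Ahsp, was tested only through the WT tumours, where it is high. Hbb-bh1, an embryonic beta-like globin, ran the other way, with -3.24, -2.45 and -2.94 in KO tumours and -3.84, -3.31 and -3.86 in WT tumours, which do not overlap (difference 0.79, SE 0.26, limma adjusted p = 0.303, and 0.45 with normexp). The part of blood content in these values was not tested.

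Gpx2-ps1 is a pseudogene of Gpx2, which encodes a glutathione peroxidase of epithelia and lies on chromosome 12. It read 1.07, -1.01 and 0.93 in KO tumours and 2.28, 0.03 and 1.57 in WT tumours, a difference of -0.96 (SE 0.73) with overlap. It was -0.29 without KO replicate 2, -0.47 without WT replicate 1 and -1.60 without WT replicate 2, and blocking on slide column gave -0.50. Gpx2 itself read 6.35, 4.26 and 6.29 in KO tumours and 7.52, 5.24 and 7.13 in WT tumours, with a difference of -0.998 (SE 0.76). The order of the 6 tumours was the same for both probes, with WT replicate 1 highest and KO replicate 2 lowest. The comparison with Gpx2 was made after the values were seen, and how far the pseudogene's probe also reads Gpx2 RNA was not tested.

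**Figure D5:**
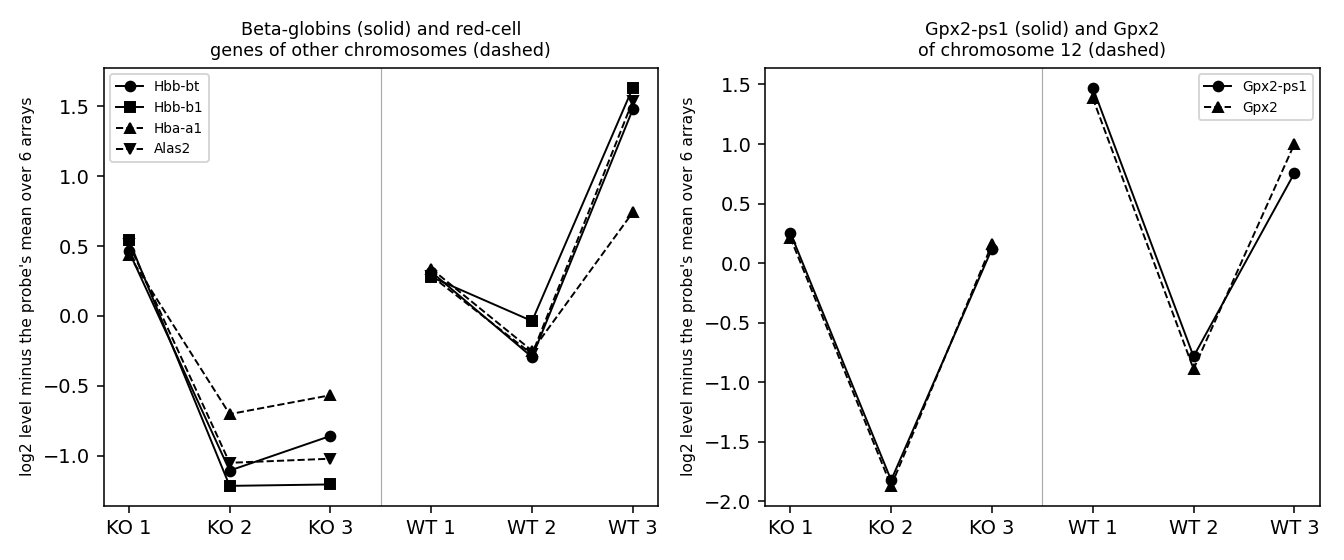
Level of each probe in each tumour minus the probe's own mean over the 6 arrays (log2, vertical axis), for the globins Hbb-bt and Hbb-b1 with Hba-a1 and Alas2 of other chromosomes (left panel) and for Gpx2-ps1 with Gpx2 of chromosome 12 (right panel), KO tumours to the left of WT tumours. In each panel the plotted genes inside and outside the window follow the same tumours: WT replicate 3 is highest for the red-cell genes shown, and WT replicate 1 is highest and KO replicate 2 lowest for Gpx2-ps1 and Gpx2. These comparisons were made after the values were seen. The erythroid markers Slc4a1, Ahsp and Ermap, not shown, had other orders.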

How the data were processed

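The authors deposited linear intensities per spot. Per the file headers, these are a processed signal, background-subtracted and detrended, and the raw mean and local background signals. The submitters' processing notes name Agilent Feature Extraction 10.7.1.1 as the program. A second deposited file, the authors' value table for the series, is in log2 units. Its columns followed each array's own processed signal at r of 0.99994 or more and share a median of 4.96, with no centring of genes and the same direction; no source used here names its tool. Probe coordinates are on mm9, as the files give them.

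From the intensities, log2 of the processed signal was taken, minus the 75th percentile of each array's 59305 non-control spots. Outlier-flagged spots (68 to 184 per array) were left out, spots of a probe were averaged, and 0 spots were saturated. Names came from RefSeq GRCm38.p6, which served for names and promoters: an accession named 32994 probes, a symbol 10224 and a synonym 520, while 12867 kept the array's name. With no mm9 annotation at hand, exon, intron and UTR are not stated.

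KO was compared with WT by limma 3.58.1 (lmFit and eBayes, R 4.3.3, data.table version 1.17.8), two-sided, per probe over all 29726 tested probes with Benjamini-Hochberg adjustment. A probe dim on all arrays of a genotype has a bound there: the brighter genotype's mean is divided by a floor for the dim one, averaged over arrays from, per array, the higher of the probe's own value and the lowest signal well above background. On simulated data with 29721 probes and 50 changed probes per size, 14 were recovered at a log2 difference of 1, 37 at 2, 43 at 3 and 46 at 4, and 9 unchanged probes were called. Lists were described by the brightest tested probe of each gene. Named genes are P2ry6, members past a call rule, the 10 with the smallest p each way, the 6 nearest each side, and up to 4 per role list. The members and lists were chosen with earlier results of these data known. Same-numbered KO and WT arrays deviated together at r = 0.0957, 0.245 and 0.143; the labels do not say that numbers pair samples, and one value is under 0.1, so the main fit has no block. The 19 alternatives are other background correction, scaling, dim-probe filters, probe summaries, eBayes settings, array weights, the authors' table, replicate, slide-column and slide-row blocks, and each sample left out; the slide-row block was chosen after the data were seen.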

Additional observations from a re-analysis of the deposited data

How the results depend on the processing

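The count of 0 flanking probes at limma's adjusted p under 0.05 held under all 19 alternatives, with the smallest adjusted p between 0.0716 (no filter on dim probes) and 0.358 (without KO replicate 3). Over all probes the count, 45, was 14 with normexp background correction, 21 with no filter, 6 when all 6 arrays had to be above background, 108 with array weights, 13 with the replicate number as a block, 0 with the slide row as a block (by limma, with 3317 of 29726 at an unadjusted p under 0.05), and 13 to 223 with 1 sample left out (13 without KO replicate 3, 17 without KO replicate 2, 27 without KO replicate 1 and 223 without WT replicate 2). In deviations from the mean of its genotype, every KO array correlated best with the WT array of its own number, a hint from the data and not from the design. In levels, every KO array correlated best with WT replicate 1. The replicate block changed no flanking call, with a smallest limma adjusted p of 0.155. The 4 flanking probes at 2-fold (3.12%, against 3.94% of all tested probes) became 0 with normexp, 2 with the filter on all 6 arrays and 1 with the brightest probe per gene. They became 2 with the mean of a gene's probes, and 2 to 5 with 1 sample left out (2 without WT replicate 3). The array-wide share at 2-fold is not given for these alternatives, so whether the flanking counts moved differently from the array cannot be told. No count at 2-fold is given for the slide-row block. The 21 without overlap (16.4%, against 19.3% of all tested probes) became 31 with normexp (24.2%, against 22.4%). The count was 54 of 200 with no filter (27%, against 36.5%) and 13 of 84 with the brightest probe per gene (15.5%, against 19.9%). With 1 sample left out, which loosens the rule, it was 25 to 40. It was 40 without WT replicate 1 (31.2%, against 28.3%), 35 without KO replicate 1 (27.3%, against 33.8%) and 32 without WT replicate 3 (25%, against 29.5%). The median log2 difference of flanking probes stayed between 0.00 and 0.18, except for 0.2958 with the slide row as a block, and the median absolute log2 difference of flanking probes between 0.15 and 0.27, except for 0.4159 with that block. That block was chosen after the data were seen, and its difference is KO replicate 1 minus WT replicate 3 alone.

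Of 971 values of 52 named genes, 934 kept their direction, 37 were reversed in 18 genes and 0 passed the threshold; the 15 genes with an unadjusted p under 0.05 had 0 reversals in 277 values, and 7 of the 15 moved by over 1.5 times with the slide row as a block: Serpinh1 to 0.35, Gm34280 to 0.41, P4ha3 to 0.41, Nup98 to 0.30, Il18bp to 1.11, Ucp3 to -0.20 and the probe at chr7:106525350-106525409 to 2.34. Reversed values were Relt 0.0356 and Gm35082 0.0221 with normexp, Stard10 -0.0669, Arhgef17 -0.14, Tsku -0.1299, Rnf121 -0.0641 and Folr1 0.2696 with array weights, and Stard10 -0.0442, Tsku -0.0265 and Myo7a -0.0182 with the slide column as a block, and Relt 0.2689, Omp 0.42, Arap1 -0.0228, Gm35082 0.3451, Rab6a 0.0782, Mrpl48 0.0216, Acer3 0.1252, Kcne3 0.3421 and Folr2 0.9739 with the slide row as a block. With 1 sample left out, Arhgef17 ranged from -0.1353 to 0.5429, Atg16l2 from -0.3839 to 0.1628, Coa4 from -0.0588 to 0.2381, Folr1 from -0.5197 to 0.3989, Folr2 from -0.9066 to 0.0943, Lrrc32 from -0.1624 to 0.8916, Myo7a from -0.035 to 0.3433, Rnf121 from -0.0259 to 0.2611, Stard10 from -0.1445 to 0.1922 and Tsku from -0.1058 to 0.4415. The cause of these changes was not tested. With 3 tumours a genotype, changes near 2-fold were recovered for 14 of 50 simulated probes, so differences of the size seen here were mostly not detectable.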
